A study of Homo sapiens with 36 samples.

Results

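Levels of mRNA were compared between TC32 cells transfected with a negative control siRNA (siNeg) and TC32 cells labelled Untreated. TC32 is an established Ewing sarcoma cell line, a tumour line driven by the fusion protein EWS-FLI1. The comparison used 6 of the 36 Illumina bead arrays of the series, siNeg replicates 1 to 3 and Untreated replicates 1 to 3. These 6 arrays were chosen by their labels and lie in 1 normalization run of the authors, and siNeg replicates 4 to 6, which lie in another run, entered the contrast in 1 alternative only and are otherwise given as levels beside it. The fit took the spread between replicates from all 12 groups. The remaining arrays were of cells in which SUPT6H, SF3B1 or HNRNPH1 was silenced with 3 siRNAs each.

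Both groups were TC32 cells grown in RPMI-1640 with fetal bovine serum, and RNA was taken 48 h after transfection. The siNeg cells received 20 nM of siRNA. The labels give the same 20 nM for the Untreated cells, which the treatment text calls untransfected. Neither the sequence of siNeg nor the transfection reagent is given in the sources used here. None of the 12 groups was labelled as reagent alone, so the reagent and the siRNA cannot be told apart. TC32 is 1 line, and no label says that replicates were separate cultures, so the p-values measure the spread between these samples, which may be technical.

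A control siRNA is a short double-stranded RNA with no intended target, delivered with a lipid or similar carrier, and it serves as the baseline for silencing experiments. Its guide strand is loaded into Argonaute like that of any siRNA and can lower transcripts that pair with its seed, while double-stranded RNA can also be sensed by the interferon system. The carrier and the handling can change growth, lipid metabolism and stress pathways. A comparison with untreated cells shows the sum of such differences, and it does not separate them.

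On the 6 arrays 14613 to 16295 of 47323 probes were detected, 15412 to 16295 in siNeg and 14613 to 15814 in Untreated, and 11437 genes were tested. Levels are log2 intensities after background correction and quantile normalization, and each difference is siNeg minus Untreated on that scale. Arrays correlated at 0.991 to 0.993 within siNeg, at 0.988 to 0.994 within Untreated, and at 0.983 to 0.992 between the groups. Untreated replicate 2 stood slightly apart from the other Untreated arrays (0.988 and 0.989, against 0.994 between the other two). The highest raw intensity on an array was 12907 to 13318 in siNeg and 15125 to 18573 in Untreated, and the part of this gap in the results was not tested. The probes for 18S and 28S ribosomal RNA, named after their values were seen, were 9.31 ± 1.95 and 12.10 ± 1.38 in siNeg, against 10.58 ± 0.66 and 13.08 ± 0.19 in Untreated (RNA18SN5 and RNA28SN5, SD, n = 3 each). The RNA18SN5 and RNA28SN5 ranges of the groups overlapped, and their part in the other results was not tested. The Ewing sarcoma genes EWSR1, FLI1, CD99 and NKX2-2 were detected on all 6 arrays, and NR0B1 was not among the genes measured.

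The 2 groups of cells differed in many genes by small amounts. Limma with Benjamini-Hochberg adjustment called 849 of 11437 genes at an adjusted p below 0.05 (7.42%). Of these, 305 were higher in siNeg (2.67% of genes tested) and 544 were lower (4.76%). The median size of a called difference was 0.48 on the log2 scale. The difference was larger than 1 in size for 4 genes called higher (SLC2A3, IGFBP3, GDF15 and MMP10) and 3 called lower (PRSS35, GOLT1B and RNA18SN5), and larger than 0.5 for 116 higher and 258 lower genes. For 795 called genes the 3 siNeg arrays did not overlap the 3 Untreated arrays, whereas 24.1% of all genes tested met that condition. Scaling the arrays to a common median in place of quantile normalization left 522 calls, 89 higher and 433 lower, so that 17% of calls were higher, against 35.9% above. Leaving out siNeg replicate 1 left 506 calls and leaving out siNeg replicate 2 left 515, and without Untreated replicate 2 the higher calls numbered 180.

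**Figure D1:**
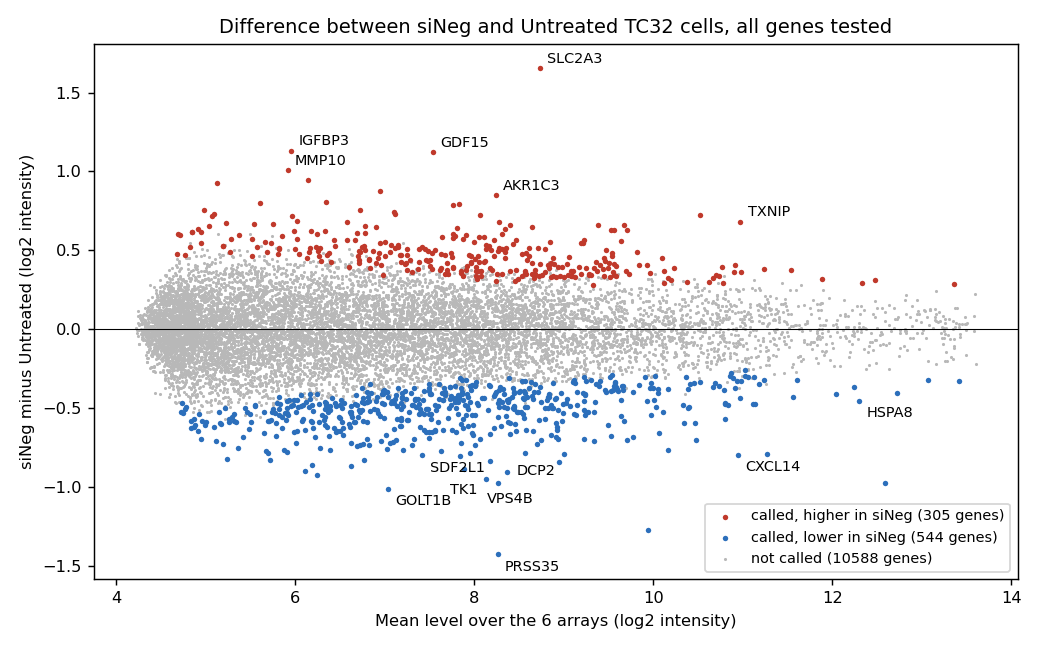
Difference between siNeg and Untreated (vertical, log2 intensity) against the mean level over the 6 arrays (horizontal, log2 intensity) for 11437 genes, with 305 genes called higher in red, 544 called lower in blue and the rest in grey. SLC2A3 lies apart at the top (1.65) and PRSS35 at the bottom (-1.43), while most called genes lie within 1 of zero.

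SLC2A3, which encodes the high-affinity glucose transporter GLUT3, rose most. Its level was 9.49, 9.61 and 9.58 in siNeg cells, against 7.72, 8.01 and 7.99 in Untreated cells. Every siNeg array lay above every Untreated array, and the gap was several times the spread within either group. The difference was 1.65 (SE 0.11, adjusted p = 3.32e-16), which is 3.15-fold with a 95% interval of 2.69 to 3.68. Under the alternatives tried it ranged from 1.41 to 1.76 and stayed called. SLC2A3 was also high on the other arrays of transfected cells: 9.70 to 9.83 in siNeg replicates 4 to 6, 8.82 to 9.95 with siSUPT6H, 8.96 to 9.99 with siSF3B1 and 8.92 to 9.66 with siHNRNPH1. The lowest of them was above 8.01, the highest Untreated array, so no array of transfected cells fell in the Untreated range.

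Other genes of glucose use were less changed. The list of glucose uptake and glycolysis had 6 of 25 measured genes higher and 0 lower, with a median difference of 0.125. Over all genes tested 2.67% were higher, and the median was -0.00627. TXNIP, an arrestin-like protein that restrains glucose uptake, was 11.32, 11.26 and 11.36 in siNeg cells, against 10.68, 10.54 and 10.68 in Untreated cells. The groups did not overlap, and the difference was 0.68 (SE 0.10, adjusted p = 8.69e-06). ARRDC4, a relative of TXNIP, differed by 0.48 (SE 0.15, adjusted p = 0.0366), and its call was lost under 9 of 19 alternatives, among them the omission of any 1 of the 6 arrays except siNeg replicate 2. Another, dimmer ARRDC4 probe gave 0.69 (SE 0.18) and was called. The hexokinases, which trap glucose in the cell, were higher as HK2 (0.57, SE 0.16, adjusted p = 0.0146) and HK1 (0.33, SE 0.08, adjusted p = 0.00909). A second HK2 probe gave 0.30 without a call, and the HK2 call was lost without siNeg replicate 1, without Untreated replicate 2 and under median scaling. SLC2A14, a near copy of SLC2A3 whose probe may share its signal, was detected on 2 of 3 siNeg arrays and on 0 of 3 Untreated arrays, at least 1.05-fold higher. The enzymes below the hexokinases were not called. Their differences ran from -0.22 for ENO2 to 0.60 for ALDOC (SE 0.22, adjusted p = 0.0888). For both of these genes the siNeg and Untreated arrays did not overlap. LDHA stood at 0.10, PGK1 at 0.16 and PFKP at 0.02. The count of 6 was 3 under median scaling, without siNeg replicate 1 and without Untreated replicate 2.

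Among hypoxia response genes 2 of 22 were higher, which is 9.09% beside 2.67% of all genes, and 0 were lower (median 0.109). The secreted glycoprotein STC1 was 6.67, 6.65 and 6.91 in siNeg cells, against 6.05, 5.56 and 6.21 in Untreated cells (0.81, SE 0.20, adjusted p = 0.00655). The mitochondrial adenylate kinase AK4 differed by 0.51 (SE 0.15, adjusted p = 0.0197), but 3 other AK4 probes gave 0.33, -0.13 and -0.23 without a call. VEGFA (-0.08) and ADM (-0.19), 2 common markers of low oxygen, were not called. The genes not called ran from -0.29 for MXI1 to 0.52 for BHLHE40 (SE 0.18, adjusted p = 0.0672). Of the 22 genes, 13 had a difference above zero and 9 below. The STC1 call was lost without Untreated replicate 2 and the AK4 call under 4 alternatives, leaving out siNeg replicate 1 or Untreated replicate 2 among them.

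**Figure D2:**
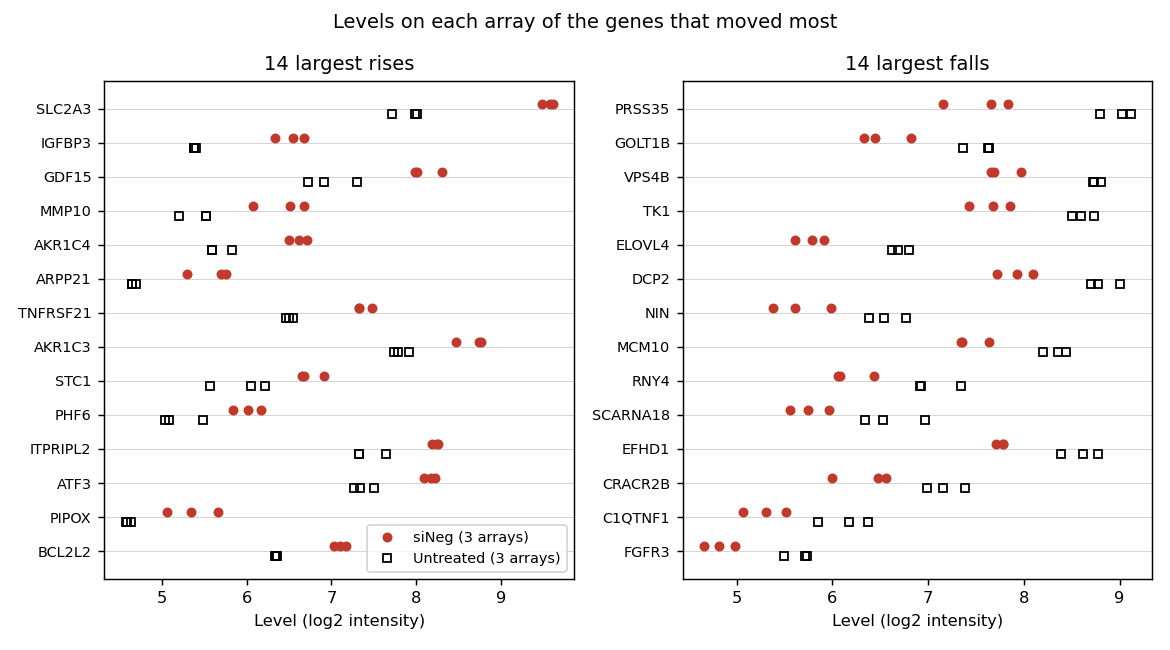
Level on each array (horizontal, log2 intensity) of the 14 genes with the largest rises (left) and the 14 with the largest falls (right), 3 siNeg arrays as red circles and 3 Untreated arrays as open squares. The groups do not overlap for any of the 28 genes, since the rule that chose them required it.

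Several secreted and stress proteins followed SLC2A3. IGFBP3, which binds insulin-like growth factors and is known as a gene that EWS-FLI1 represses, was 6.33, 6.68 and 6.55 in siNeg cells, against 5.40, 5.38 and 5.38 in Untreated cells (1.13, SE 0.14, adjusted p = 1.68e-07). A second IGFBP3 probe gave 0.57 (SE 0.17). GDF15, a stress-induced cytokine, was 8.01, 8.30 and 7.99 in siNeg cells, against 6.72, 7.30 and 6.91 in Untreated cells (1.12, SE 0.20, adjusted p = 9.12e-05). Both genes were at least 0.6 log2 apart between the nearest arrays of the groups. The secreted protease MMP10 was 6.51, 6.07 and 6.68 in siNeg cells, against 5.52, 5.20 and 5.52 in Untreated cells (1.01, SE 0.20, adjusted p = 0.00047). TNFRSF21, also called death receptor 6, differed by 0.88 (SE 0.13, adjusted p = 3.94e-06), and BCL2L2, which encodes the survival protein BCL-W, by 0.75 (SE 0.15, adjusted p = 0.000516).

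The aldo-keto reductases, enzymes that reduce steroids and reactive aldehydes, were higher as AKR1C4 (0.95, SE 0.14, adjusted p = 5.87e-06), AKR1C3 (0.85, SE 0.12, adjusted p = 2.01e-06) and AKR1C2 (0.72, SE 0.16, adjusted p = 0.00209). AKR1C3 was 8.74, 8.77 and 8.47 in siNeg cells, against 7.79, 7.74 and 7.91 in Untreated cells. These genes are near copies, and probes may share signal among them. NQO1, a quinone reductase and like the AKR1C genes a known target of the antioxidant factor NRF2, moved the other way. It was 8.50, 8.67 and 8.65 in siNeg cells, against 9.51, 9.24 and 9.45 in Untreated cells (-0.79, SE 0.10, adjusted p = 1.68e-07). The NRF2 and oxidative stress list had 2 of 20 genes higher (10%, against 2.67% of all genes) and 1 lower (5%, against 4.76%), with a median of 0.0846.

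ARPP21, a cAMP-regulated phosphoprotein, and PIPOX, a peroxisomal oxidase, were detected on 3 of 3 siNeg arrays and on 0 of 3 Untreated arrays. Of 3 other ARPP21 probes 1 was called as well (0.66) and 2, at 0.30 and 0.40, were not. ARPP21 was at least 1.58-fold higher (adjusted p = 0.000137) and PIPOX at least 1.34-fold higher (adjusted p = 0.00103). The bound is the siNeg mean over the lowest signal that counted as detected on the Untreated arrays. PIPOX was 4.40 to 4.67 in siNeg replicates 4 to 6, against 4.57 to 4.63 in Untreated, and its call was lost with all 6 siNeg arrays. PHF6, a chromatin protein of the nucleolus, differed by 0.80 (SE 0.19, adjusted p = 0.0041), and a second probe gave 0.53 without a call. ITPRIPL2 differed by 0.79 (SE 0.18, adjusted p = 0.00237). PHF6 stood at 4.68 to 5.14 and ITPRIPL2 at 7.56 to 7.63 in siNeg replicates 4 to 6, against 5.04 to 5.48 and 7.32 to 7.64 in Untreated. Both calls were lost with all 6 siNeg arrays.

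Genes of DNA replication and the entry into S phase were lower in siNeg cells. Of 42 measured members 24 were called lower and 0 higher, and 40 had a difference below zero. The median was -0.43, against -0.00627 over all genes tested, 4.76% of which were called lower. A lower level of such genes could come from fewer cells in S phase or from less RNA of these genes in each such cell, which cannot be told apart in bulk RNA. In the alternatives with siNeg replicates 1 to 3 the count was 20 to 25, and with all 6 siNeg arrays it was 16.

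The nucleotide enzyme TK1, thymidine kinase, was 7.43, 7.86 and 7.68 in siNeg cells, against 8.50, 8.73 and 8.60 in Untreated cells (-0.95, SE 0.12, adjusted p = 1.68e-07). MCM10, which joins the helicase as replication origins fire, was 7.35, 7.34 and 7.64 in siNeg cells, against 8.20, 8.44 and 8.36 in Untreated cells (-0.89, SE 0.13, adjusted p = 3.01e-06). A second MCM10 probe gave -0.74 (SE 0.14). The siNeg arrays lay below the Untreated arrays for both genes. Of the helicase subunits MCM6 was 10.14, 10.10 and 10.26 in siNeg cells, against 10.69, 10.74 and 10.86 in Untreated cells (-0.60, SE 0.09, adjusted p = 1.53e-05). MCM5 (-0.51), MCM3 (-0.44) and MCM4 (-0.39) were also called, while MCM2 (-0.09) and MCM7 (-0.20) were not. PCNA, the sliding clamp of the polymerases, was 10.05, 9.95 and 10.13 in siNeg cells, against 10.62, 10.55 and 10.76 in Untreated cells (-0.60, SE 0.12, adjusted p = 0.000775). Of 2 other PCNA probes 1 gave -0.69 (SE 0.16) and 1, near background, gave -0.02. FEN1, the flap endonuclease that matures lagging strands, was -0.68 (SE 0.11, adjusted p = 2.23e-05), and a second probe gave -0.34 without a call.

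Further called members covered the clamp loader (RFC5, -0.62), the polymerases and primase (POLE2 -0.62, POLA1 -0.55, POLA2 -0.50, PRIM1 -0.36) and the CMG helicase partners (GINS3 -0.57, CDC45 -0.47, GINS2 -0.44). The histone chaperones that follow the fork were lower too, with ASF1B at -0.76 (SE 0.15, adjusted p = 0.000597), CHAF1A at -0.53 and CHAF1B at -0.49. ASF1B stood at 7.79 to 7.97 in siNeg replicates 4 to 6, against 7.26 to 7.58 in Untreated, and its call was lost with all 6 siNeg arrays. SLBP, which binds the stem-loop of histone mRNA, was -0.56. Of the histone genes 4 of 26 were lower (15.4%, against 4.76% of all genes) and 1 was higher (3.85%, against 2.67%), with a median of -0.0383. H2BC12 was -0.53 (SE 0.11, adjusted p = 0.000746) and the variant histone gene H2AZ1 was -0.40 (SE 0.09, adjusted p = 0.00209). Of the upstream regulators E2F2 was called lower (-0.43, SE 0.10, adjusted p = 0.00281), while CCNE1 (-0.06), CCND1 (-0.08) and E2F1 (-0.20) were not called. The origin genes ORC1 (0.00) and ORC6 (0.18) were not called either.

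The genes of G2 and mitosis differed less and in both directions. Of 45 measured, 4 were higher (8.89%, against 2.67% of all genes) and 1 was lower (2.22%, against 4.76%), with a median of -0.00899. The mitotic kinase AURKA was 9.92, 10.33 and 10.14 in siNeg cells, against 9.79, 9.80 and 9.59 in Untreated cells (0.41, SE 0.11, adjusted p = 0.0108). The nuclear import receptor KPNA2 was 0.45 (SE 0.13, adjusted p = 0.026) and cyclin B2, CCNB2, was 0.35 (SE 0.11, adjusted p = 0.0264). The spindle protein NUSAP1 was -0.41 (SE 0.10, adjusted p = 0.00608). Second probes without a call gave 0.31 for AURKA, 0.17 for KPNA2 and -0.01 for NUSAP1. The proliferation marker MKI67 (-0.12), CDK1 (-0.04) and TOP2A (-0.02) were not called. None of the 4 higher calls was made under median scaling. The AURKA call was also lost without siNeg replicate 2 or Untreated replicate 3, the KPNA2 and CCNB2 calls without siNeg replicate 1 or Untreated replicate 2 and under 7 of 19 alternatives each (CCNB2 also without siNeg replicate 2 or Untreated replicate 1), and the NUSAP1 call was lost without siNeg replicate 2.

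**Figure D3:**
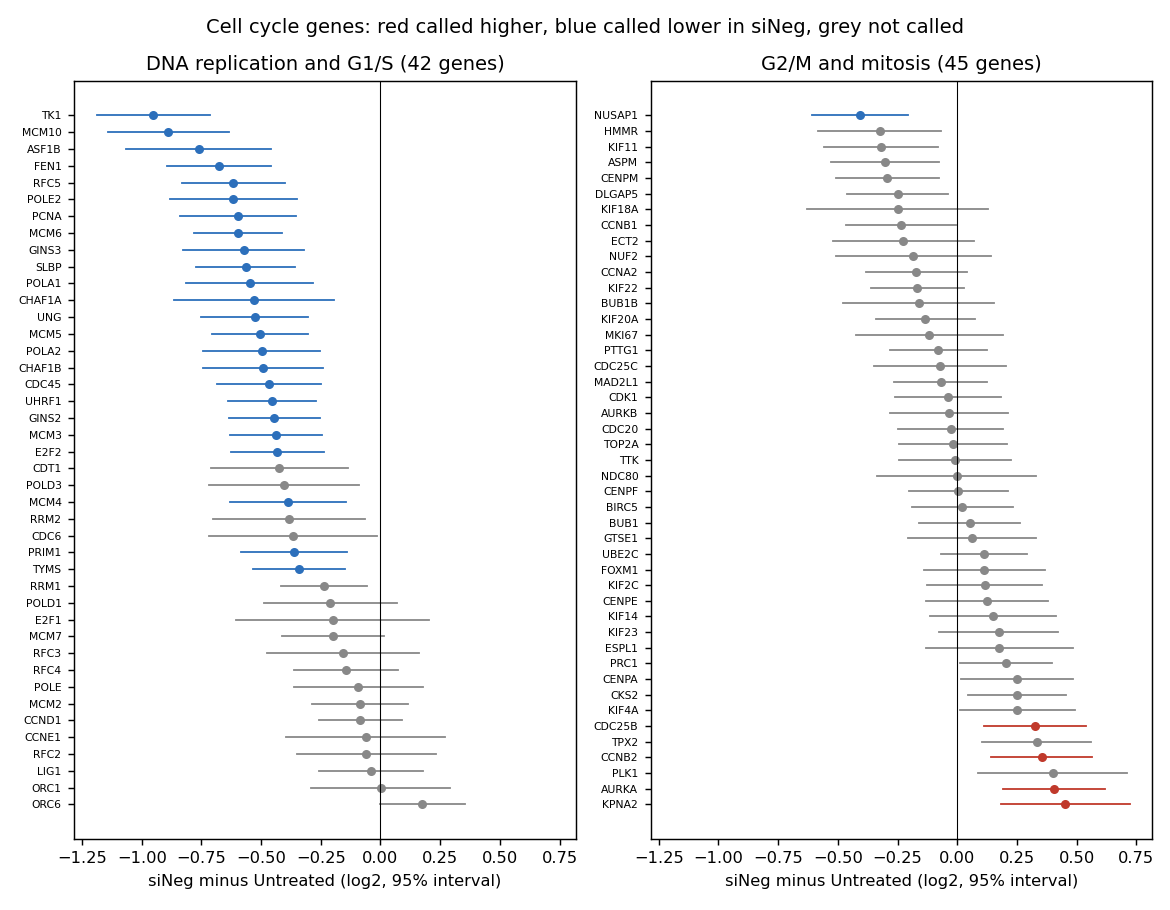
Difference between siNeg and Untreated (horizontal, log2 intensity, points with 95% intervals) for 42 DNA replication and G1/S genes (left) and 45 G2/M genes (right), called higher in red, called lower in blue and not called in grey. On the left 40 of 42 points lie below zero and 24 are called lower, while on the right the points spread to both sides with 4 called higher and 1 called lower.

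Many S phase genes carry sites for E2F, the transcription factor family that switches them on, close to their start. Promoters with such letters are shown for 4 genes called lower, from RefSeq on GRCh38.p14, as the 250 bases before the gene's start on the gene's own strand. Capitals mark the letters TTTCCCGC, TTTGGCGC or TTTGGCGG, searched on both strands.
MCM6 promoter, chr2:135876444-135876693, minus strand: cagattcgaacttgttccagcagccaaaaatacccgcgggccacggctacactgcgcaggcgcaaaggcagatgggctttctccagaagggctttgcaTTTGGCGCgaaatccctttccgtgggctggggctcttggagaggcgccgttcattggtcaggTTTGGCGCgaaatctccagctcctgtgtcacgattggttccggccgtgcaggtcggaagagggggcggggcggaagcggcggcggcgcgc
PCNA promoter, chr20:5126623-5126872, minus strand: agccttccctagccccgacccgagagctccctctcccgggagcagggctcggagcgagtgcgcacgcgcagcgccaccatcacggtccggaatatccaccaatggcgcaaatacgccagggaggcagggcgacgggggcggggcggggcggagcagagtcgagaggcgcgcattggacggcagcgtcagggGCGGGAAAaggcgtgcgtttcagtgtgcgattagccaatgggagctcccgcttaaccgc
MCM3 promoter, chr6:52284743-52284992, minus strand: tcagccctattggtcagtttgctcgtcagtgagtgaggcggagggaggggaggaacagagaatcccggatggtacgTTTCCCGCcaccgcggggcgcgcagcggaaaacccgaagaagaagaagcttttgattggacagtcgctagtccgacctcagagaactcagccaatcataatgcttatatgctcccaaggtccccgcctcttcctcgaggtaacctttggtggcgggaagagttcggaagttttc
CDC45 promoter, chr22:19479670-19479919, plus strand: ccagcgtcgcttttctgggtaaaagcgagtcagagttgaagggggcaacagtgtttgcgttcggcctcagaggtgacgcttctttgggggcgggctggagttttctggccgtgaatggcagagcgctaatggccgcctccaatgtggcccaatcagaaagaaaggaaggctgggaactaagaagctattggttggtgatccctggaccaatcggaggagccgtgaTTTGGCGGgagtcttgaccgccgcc

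In windows of 300 bases, 250 before to 50 after the start, at least 1 of these E2F letters was found for 14 of the 22 lower genes that had a window. It was found for 7 of 16 other measured genes of the list and for 528 of 9190 tested genes with a window (5.75%). Over all 27305 genes of the promoter table the share was 3.5%. PCNA holds its match 59 bases before the start, on the strand opposite the gene, and MCM6 holds 2 copies. Such a match describes the letters and is not a measured site.

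Genes that the transcription factor ATF4 controls in the integrated stress response, a pathway that slows translation and raises amino acid supply, were partly higher. Of 47 measured, 10 were higher and 1 was lower, with a median of 0.144, against 2.67% higher over all genes tested. The stress factor ATF3 was 8.22, 8.09 and 8.17 in siNeg cells, against 7.50, 7.34 and 7.26 in Untreated cells (0.79, SE 0.12, adjusted p = 1.23e-05). SESN2, an inhibitor of the growth kinase complex mTORC1, was 0.68 (SE 0.17, adjusted p = 0.00885), and the secreted STC2 was 0.58 (SE 0.13, adjusted p = 0.00357). The SESN2 call was lost without siNeg replicate 1 and without Untreated replicate 3. GDF15, described above, belongs to the same list. Lower in rank, CTH (0.54), PPP1R15A (0.51) and DDIT4 (0.50) were called as well. So were the amino acid genes MARS1 (0.39), PYCR1 (0.35) and GARS1 (0.31), though 2 other PYCR1 probes gave 0.04 and 0.08 without a call. The amino acid genes ASNS (0.08), SLC7A11 (0.05) and PHGDH (-0.06) were not called, and neither was CHAC1 (0.17). ATF4 itself stood at 0.02, and 2 other ATF4 probes gave 0.315 and 0.144 without a call. The serine enzyme PSAT1 was lower (-0.30, SE 0.10, adjusted p = 0.0486), a call lost when every kept probe was tested. The higher count was 3 under median scaling, 6 without siNeg replicate 2 and 6 without Untreated replicate 3, against 15 in the authors' deposited log2 values and 18 with all 6 siNeg arrays.

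Chaperones of the endoplasmic reticulum and of the cytosol were lower where they were called, with 1 exception. In the endoplasmic reticulum unfolded protein response 3 of 18 genes were lower (16.7%, against 4.76% of all genes) and 0 higher (median -0.153). SDF2L1, a component of the chaperone complex in that compartment, was 6.79, 7.14 and 7.12 in siNeg cells, against 7.79, 8.01 and 7.66 in Untreated cells (-0.80, SE 0.10, adjusted p = 2.06e-07). CRELD2 was -0.50 (SE 0.13, adjusted p = 0.00803) and the chaperone HSP90B1, also known as GRP94, was -0.47 (SE 0.11, adjusted p = 0.00226). The CRELD2 and HSP90B1 calls were lost with all 6 siNeg arrays, and that of CRELD2 also without siNeg replicate 1 or Untreated replicate 2. Promoters of both are shown because they hold the letters of the endoplasmic reticulum stress element, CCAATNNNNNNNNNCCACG, in capitals where found on either strand.
CRELD2 promoter, chr22:49918384-49918633, plus strand: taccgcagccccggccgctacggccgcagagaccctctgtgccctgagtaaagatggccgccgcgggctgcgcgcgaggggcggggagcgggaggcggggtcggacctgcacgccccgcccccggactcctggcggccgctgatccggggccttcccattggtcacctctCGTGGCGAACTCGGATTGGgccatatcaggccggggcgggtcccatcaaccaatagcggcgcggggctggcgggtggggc
HSP90B1 promoter, chr12:103930160-103930409, plus strand: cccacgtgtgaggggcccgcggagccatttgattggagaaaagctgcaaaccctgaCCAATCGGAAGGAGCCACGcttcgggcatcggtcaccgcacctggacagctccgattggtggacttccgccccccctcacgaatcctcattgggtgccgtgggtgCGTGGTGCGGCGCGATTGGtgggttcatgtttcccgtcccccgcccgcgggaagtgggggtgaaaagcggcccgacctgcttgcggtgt

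That element was found in the 300-base windows of 2 of the 3 lower genes, of 5 of the other 15 measured genes of the list and of 16 of 9190 tested genes (0.174%). The 5 were CALR, CANX, HSPA5, PDIA6 and XBP1, whose differences were not called. For SDF2L1 these letters are not in the window. CRELD2 holds its match 80 bases before the start.

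Of the heat shock genes 6 of 29 were lower (20.7%) and 1 was higher (3.45%), with a median of -0.17, where 4.76% of all genes were lower and 2.67% higher. The constitutive chaperone HSPA8 was 12.07 ± 0.06 in siNeg cells, against 12.53 ± 0.10 in Untreated cells (SD, n = 3 each; -0.46, SE 0.09, limma adjusted p = 0.000419), and a second HSPA8 probe gave -0.28 without a call. The inducible HSP70 genes were lower as HSPA1A (-0.59, SE 0.15, adjusted p = 0.00743) and HSPA1B (-0.54, SE 0.10, adjusted p = 0.000128), near copies whose probes may share signal. HSPA1A was 7.38, 7.31 and 7.20 in siNeg cells, against 7.50, 8.29 and 7.88 in Untreated cells, and its call was lost without Untreated replicate 2. The small heat shock protein CRYAB was -0.54 (SE 0.10, adjusted p = 0.000336), a call lost with all 6 siNeg arrays. HSP90AA1 (-0.41, adjusted p = 0.00304) and HSPH1 (-0.40, adjusted p = 0.00852) were lower, and 2 other HSP90AA1 probes gave -0.14 and -0.29 without a call. For HSPH1 the siNeg and Untreated arrays overlapped. The constitutive HSP90AB1 was higher (0.34, SE 0.09, adjusted p = 0.011).

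Genes that sense double-stranded RNA or answer to interferon were not called. Of 43 measured, 0 were called in either direction by limma, 6 had an unadjusted p below 0.05, and the median was -0.0564. The differences ran from -0.39 for IRF1 to 0.32 for IFI16. The sensors IFIH1 (-0.02), DHX58 (0.05), TLR3 (0.22) and EIF2AK2 (0.08) and the induced genes IFIT1 (0.03), MX1 (0.23) and ISG15 (-0.24) lay within that range. A missed threshold does not show that these genes had the same level in both groups. Of 13 inflammatory genes 1 was called, and it was lower (7.69%, against 4.76% of all genes). This gene, the chemokine CXCL14, was 10.19, 10.73 and 10.73 in siNeg cells, against 11.09, 11.48 and 11.47 in Untreated cells (-0.80, SE 0.17, adjusted p = 0.00175). CXCL14 stood at 11.75 to 11.91 in siNeg replicates 4 to 6, above Untreated, and its call was lost with all 6 siNeg arrays.

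The machinery of RNA interference and RNA decay had 2 of 18 genes higher (11.1%, against 2.67% of all genes) and 1 lower (5.56%, against 4.76%). The median was 0.0508. The exonuclease XRN1, which degrades decapped RNA, was 5.90, 5.68 and 6.09 in siNeg cells, against 6.64, 6.72 and 6.59 in Untreated cells (-0.76, SE 0.17, adjusted p = 0.00206). TARBP2, the partner of Dicer, was 0.47 (SE 0.14, adjusted p = 0.0218), and TSNAX, a subunit of the nuclease that clears passenger strands, was 0.43 (SE 0.14, adjusted p = 0.0388). Those 2 calls were lost under 6 and 9 of 19 alternatives, TARBP2 without siNeg replicate 2 or 3 or Untreated replicate 1 and TSNAX without siNeg replicate 1 or 3 or Untreated replicate 2 among them. Second probes without a call gave 0.40 for TARBP2 and -0.195 for TSNAX, and for TSNAX the siNeg and Untreated arrays overlapped.

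**Figure D4:**
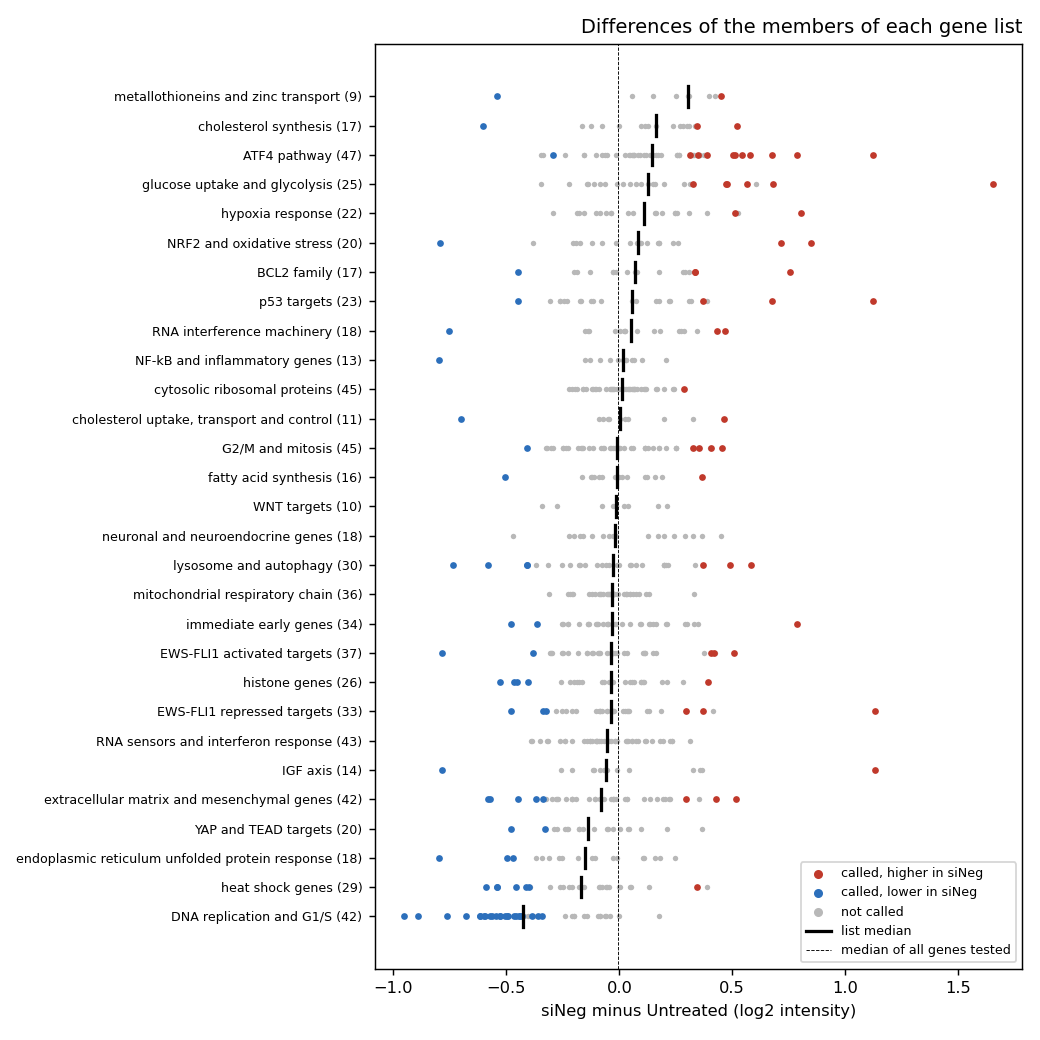
Differences between siNeg and Untreated (horizontal, log2 intensity) of the measured members of each gene list with 9 or more of them (rows, number measured in brackets), called higher in red, called lower in blue, not called in grey, list median as a black bar and the median of all genes as a dashed line. The DNA replication and G1/S list stands at the bottom with a median of -0.43, while the other list medians lie between -0.17 and 0.303.

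The genes that fell most had varied functions. PRSS35, a gene for a trypsin-like protein, was 7.83, 7.15 and 7.66 in siNeg cells, against 9.02, 8.79 and 9.12 in Untreated cells. The groups were over 0.9 log2 apart, and the difference was -1.43 (SE 0.12, adjusted p = 1.37e-12), or 37.2% of the Untreated level. GOLT1B, which acts in transport to the Golgi, was 6.44, 6.33 and 6.82 in siNeg cells, against 7.36, 7.64 and 7.63 in Untreated cells (-1.01, SE 0.15, adjusted p = 3.94e-06). VPS4B, an ATPase that disassembles the ESCRT membrane-cutting machinery, was 7.69, 7.66 and 7.97 in siNeg cells, against 8.72, 8.73 and 8.81 in Untreated cells (-0.98, SE 0.10, adjusted p = 3.63e-10). DCP2, the enzyme that removes the cap of mRNA ahead of decay, was 7.93, 7.72 and 8.10 in siNeg cells, against 8.77, 9.0 and 8.70 in Untreated cells (-0.90, SE 0.12, adjusted p = 2.15e-07). The groups did not overlap for any of these genes, and all 4 calls were made under every one of the 19 alternatives.

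The levels of PRSS35, VPS4B and DCP2 on the arrays outside the comparison are given side by side, with no test. Levels of GOLT1B, and of DCP2 with siHNRNPH1, are not given here, so these values do not describe the largest falls as a set. PRSS35 stood at 7.72 to 7.76 in siNeg replicates 4 to 6, against 9.12 to 10.11 with siSUPT6H, 8.89 to 9.26 with siSF3B1 and 8.22 to 8.79 with siHNRNPH1. VPS4B stood at 7.96 to 8.25 in siNeg replicates 4 to 6, against 8.71 to 9.29 with siSUPT6H, 8.60 to 8.90 with siSF3B1 and 8.41 to 9.51 with siHNRNPH1. For both genes every siNeg array lay below every array of the other transfected cells. DCP2 was 8.20 to 8.46 in siNeg replicates 4 to 6 and 8.98 to 9.37 with siSF3B1, but overlapped with siSUPT6H (7.84 to 9.25). The silencing arrays also differ from siNeg by the silenced gene, so the sequence of the siRNA and the silencing cannot be told apart in them.

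GDF15 and ATF3 were above every Untreated array in both sets of siNeg arrays. GDF15 stood at 8.03 to 8.19 in siNeg replicates 4 to 6, against 4.35 to 4.67 with siSUPT6H, 4.25 to 5.53 with siSF3B1 and 4.77 to 7.36 with siHNRNPH1. ATF3 stood at 8.0 to 8.28 in siNeg replicates 4 to 6, against 5.37 to 5.90 with siSUPT6H, 6.25 to 6.91 with siSF3B1 and 6.1 to 7.17 with siHNRNPH1. Both genes lay lower on the arrays of the silencing groups than on any siNeg array, and ATF3 was below Untreated on all arrays of those groups. TXNIP stood at 11.60 to 11.88 in siNeg replicates 4 to 6 and at 11.41 to 12.26 with siHNRNPH1, but at 9.74 to 10.29 with siSUPT6H and 8.35 to 9.53 with siSF3B1. TK1 stood at 8.08 to 8.29 in siNeg replicates 4 to 6, closer to Untreated than siNeg replicates 1 to 3. The levels given here come from 1 normalization of all 36 arrays, so the authors' normalization runs did not set them. siNeg replicates 4 to 6 and siHNRNPH1 lay in the authors' run without Untreated arrays. Whether the arrays of that run were also handled apart is not given in the sources used here. Their median raw intensities were 86.4 to 87.8 in siNeg replicates 4 to 6 and 83.8 to 89 with siHNRNPH1. Those of the other run were 89.6 to 96. Handling and group cannot be told apart for the arrays of the run without Untreated.

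**Figure D5:**
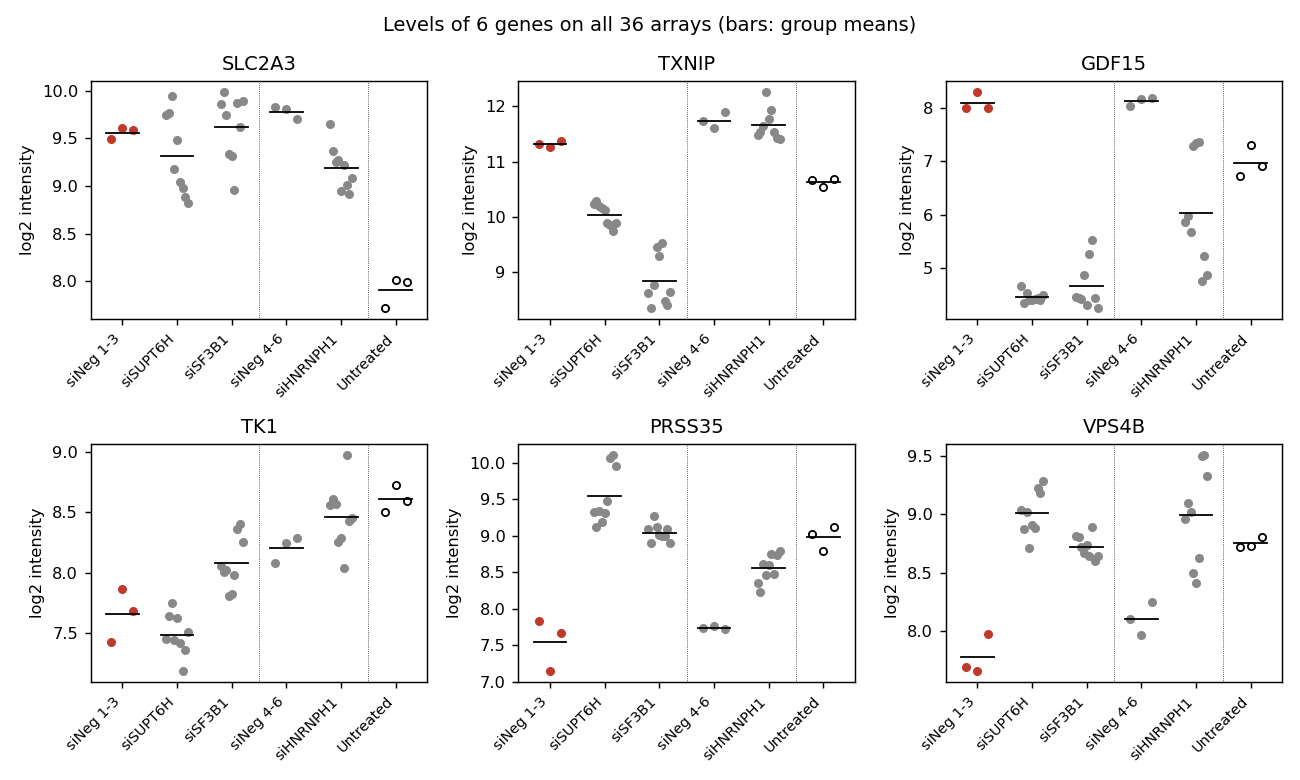
Levels (vertical, log2 intensity) of 6 genes on all 36 arrays, with siNeg replicates 1 to 3 in red, the silencing groups of 9 arrays and siNeg replicates 4 to 6 in grey, Untreated as open circles at the right, and group means as bars. The levels come from 1 normalization of all 36 arrays. The first dotted line separates the arrays of the authors' 2 normalization runs and the second sets off Untreated, which belongs to the first run. SLC2A3 was above Untreated on every other array, while PRSS35 was at 7.15 to 7.83 on the 6 siNeg arrays and above 8.2 elsewhere.

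Among the other genes with large falls, ELOVL4, which elongates very long fatty acids, was -0.93 (SE 0.13, adjusted p = 2.41e-06), and EFHD1, a calcium-binding protein of mitochondria, was -0.84 (SE 0.12, adjusted p = 1.59e-06). CRACR2B, a regulator of calcium entry channels, was -0.83 (SE 0.13, adjusted p = 2.23e-05), and the secreted C1QTNF1 was -0.83 (SE 0.18, adjusted p = 0.00158). The small RNA RNY4, a Y RNA that binds the Ro60 protein, was 6.08, 6.06 and 6.43 in siNeg cells, against 6.93, 7.34 and 6.91 in Untreated cells (-0.87, SE 0.18, adjusted p = 0.000752). SCARNA18, a small Cajal body RNA that guides modification of spliceosomal RNA, was -0.86 (SE 0.16, adjusted p = 0.000298). The centrosome gene NIN (-0.90, SE 0.18, adjusted p = 0.000516) and the receptor gene FGFR3 (-0.82, SE 0.17, adjusted p = 0.000775) each had a second probe with no call, at -0.05 and 0.05. Their falls therefore rest on 1 of 2 probes, and FGFR3 was detected on 2 of 3 siNeg arrays.

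Lipid genes showed small changes. Of 17 cholesterol synthesis genes 2 were higher (11.8%, against 2.67% of all genes) and 1 was lower (5.88%, against 4.76%), with a median of 0.161. HMGCS1, which makes the precursor that HMG-CoA reductase uses, was 7.43, 7.35 and 7.43 in siNeg cells, against 6.75, 6.96 and 6.95 in Untreated cells (0.52, SE 0.10, adjusted p = 0.000336). The thiolase gene ACAT2 was 0.34 (SE 0.10, adjusted p = 0.0229), and its call was lost under 9 of 19 alternatives, any single array left out included. SC5D, a late enzyme of the pathway, was 6.31, 6.27 and 6.32 in siNeg cells, against 6.77, 7.03 and 6.91 in Untreated cells (-0.60, SE 0.12, adjusted p = 0.000752). SC5D stood at 7.16 to 7.37 in siNeg replicates 4 to 6, on the other side of Untreated, and its call was lost with all 6 siNeg arrays. The cholesterol exporter ABCA1 was 6.75, 6.66 and 6.92 in siNeg cells, against 7.42, 7.47 and 7.54 in Untreated cells (-0.70, SE 0.13, adjusted p = 0.000137). LIPA, the lysosomal lipase that frees cholesterol, was 0.46 (SE 0.11, adjusted p = 0.00335). Of 16 fatty acid genes the desaturase SCD was higher (0.37, SE 0.10, adjusted p = 0.0115) and the ligase ACSL4 lower (-0.51, SE 0.14, adjusted p = 0.0128), 6.25% each way. A second ACSL4 probe gave 0.04 without a call. The SCD call was lost without siNeg replicate 1 or Untreated replicate 2, and the ACSL4 call without siNeg replicate 2 or Untreated replicate 3.

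Lysosome and autophagy genes were called in both directions, with 3 of 30 higher (10%, beside 2.67% of all genes) and 4 lower (13.3%, beside 4.76%; median -0.027). ATG14, a subunit of the kinase complex that starts autophagosomes, was 6.56, 6.32 and 6.48 in siNeg cells, against 7.24, 7.14 and 7.17 in Untreated cells (-0.74, SE 0.12, adjusted p = 4.53e-05). The proton pump subunit ATP6V1A was -0.58 (SE 0.10, adjusted p = 6.2e-05). GABARAPL1, which coats autophagosomes, was higher by 0.58 (SE 0.11, adjusted p = 0.000278), and the sialidase NEU1 by 0.49 (SE 0.12, adjusted p = 0.00671). Of 9 genes of metal handling 8 had a difference above zero (median 0.303), but few were called. MT1F, a metallothionein, was higher (0.45, SE 0.11, adjusted p = 0.00741), and the zinc importer SLC39A10 was lower (-0.54, SE 0.17, adjusted p = 0.039). SLC39A10 lost its call under 9 of 19 alternatives, among them the omission of any single array of the 6, and MT1F lost its call without siNeg replicate 2 or Untreated replicate 1.

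Targets of the Ewing sarcoma fusion were called in both directions. Of 37 genes known as EWS-FLI1 activated targets 3 were higher (8.11%) and 2 lower (5.41%), with a median of -0.0357. Of 33 repressed targets 3 were higher and 3 lower (9.09% each, median -0.0386), against 2.67% higher and 4.76% lower over all genes tested. PAPPA, a protease that frees insulin-like growth factors from their binding proteins, was 8.06, 8.11 and 8.35 in siNeg cells, against 9.13, 8.71 and 9.03 in Untreated cells (-0.78, SE 0.13, adjusted p = 2.39e-05). EZH2, the histone methyltransferase of the Polycomb complex, was 0.51 (SE 0.15, adjusted p = 0.0211), but 2 other EZH2 probes gave 0.26 and -0.06 without a call, and the value with all 6 siNeg arrays was 0.02. That call was lost without siNeg replicate 1 and without Untreated replicate 2. EWSR1 was 10.01 on each siNeg array, against 9.90, 10.17 and 9.90 in Untreated cells (0.02, SE 0.11, adjusted p = 0.962). FLI1 was -0.22 (SE 0.16, adjusted p = 0.502), CD99 was -0.25 (SE 0.10, adjusted p = 0.0984) and NKX2-2 was -0.12 (SE 0.11, adjusted p = 0.591). None of the 7 measured Ewing sarcoma markers was called, and 1 had an unadjusted p below 0.05. Under 1 of the 19 alternatives, however, FLI1 was called lower (limma adjusted p = 0.0119), and its differences ran from -0.823 to -0.091.

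The genes silenced elsewhere in the series were not called by limma between siNeg and Untreated. SUPT6H was 7.0, 6.79 and 6.75 in siNeg cells, against 6.53, 6.58 and 6.57 in Untreated cells (0.29, SE 0.14, 95% interval 0 to 0.58, adjusted p = 0.243). SF3B1 was -0.08 (SE 0.11, 95% interval -0.30 to 0.14, adjusted p = 0.748) and HNRNPH1 was -0.16 (SE 0.12, 95% interval -0.39 to 0.08, adjusted p = 0.49). For SUPT6H the 3 siNeg arrays lay above the 3 Untreated arrays, and for SF3B1 and HNRNPH1 the groups overlapped. Second probes without a call gave 0.385 for SF3B1 and 0.02 for HNRNPH1.

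Of 42 matrix and mesenchymal genes 3 were higher (7.14%) and 5 lower (11.9%), with a median of -0.0833, and over all genes 2.67% and 4.76% were. ITGB1, the common beta subunit of matrix receptors, was 10.50, 10.35 and 10.69 in siNeg cells, against 11.04, 11.13 and 11.09 in Untreated cells (-0.57, SE 0.09, adjusted p = 1.65e-05), but 2 other ITGB1 probes gave -0.03 and 0.06 without a call. The cadherin CDH2 was -0.58 (SE 0.16, adjusted p = 0.0184), a call lost under 5 of 19 alternatives, without siNeg replicate 1 or 2 or Untreated replicate 2 or 3 among them, and the basement membrane gene LAMB1 was 0.52 (SE 0.11, adjusted p = 0.000985). LAMB1 stood at 8.29 to 8.43 in siNeg replicates 4 to 6, within the range of Untreated, and its call was lost with all 6 siNeg arrays. Of 23 p53 targets 3 were higher (13%), GDF15 and SESN2 among them, and 1 was lower (4.35%, median 0.0583). CDKN1A, the cell cycle inhibitor p21, was 0.37 (SE 0.11, adjusted p = 0.0249), and its call was lost under 7 of 19 alternatives, leaving out siNeg replicate 2 or 3 or Untreated replicate 1 or 3 among them. BAX, a promoter of cell death, was -0.45 (SE 0.11, adjusted p = 0.00501), a call lost without Untreated replicate 2. BAX stood at 8.72 to 8.81 in siNeg replicates 4 to 6, against 8.36 to 8.76 in Untreated, and a second BAX probe gave -0.03. In the BCL2 family 3 of 17 genes were higher (17.6%, against 2.67% of all genes), BCL2L2 with BCL2L13 (0.34, SE 0.09, adjusted p = 0.0122) and BCL2L1 (0.34, SE 0.10, adjusted p = 0.024). BAX was the only lower one (5.88%, against 4.76%). The BCL2L1 call was lost under 7 of 19 alternatives, without any 1 of the 3 siNeg arrays or Untreated replicates 2 and 3 among them, and that of BCL2L13 under 2, median scaling and the 6 arrays alone.

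In other lists few genes were called, and over all genes tested 2.67% were higher and 4.76% lower. Of 34 immediate early genes 1 was higher, ATF3, and 2 were lower, the matricellular gene CCN1 (-0.48, SE 0.14, adjusted p = 0.0197) and the inhibitor of differentiation ID3 (-0.36, SE 0.09, adjusted p = 0.0094). Both were lost without Untreated replicate 2, CCN1 also without siNeg replicate 1 and ID3 without siNeg replicate 3. Of 20 YAP and TEAD targets 2 were lower (10%), CCN1 among them, and 0 higher (median -0.137). Of 45 cytosolic ribosomal protein genes RPLP2 alone was called (0.28, SE 0.09, adjusted p = 0.0479), and its call was lost under 12 of 19 alternatives (without any 1 array except siNeg replicate 3 among them) and its sign turned under median scaling (-0.05). Limma called 0 of 36 respiratory chain genes, 0 of 10 WNT targets and 0 of 18 neuronal genes, of which 3, 0 and 5 had an unadjusted p below 0.05. Of blood, epithelial and muscle markers 2 of 13, 3 of 10 and 1 of 10 were measured, and 0 were called, with 0 at an unadjusted p below 0.05.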

How the data were processed

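Illumina bead arrays of TC32 RNA were read from 2 deposited tables. The first held the average bead intensity of 47323 probes per array, without background subtraction or normalization, and a deposited detection p-value beside each. The second held the authors' log2 values of 47231 probes. Per the submitters' processing notes GenomeStudio, R 3.0.2 and lumi were used, and the normalization method is not given in the sources used here. In the first table the columns taken as Untreated bear an abbreviation that no label spells out, and they were assigned because every other column name matched a label. Each of the 36 columns matched its own column of the second table best (rank correlation at least 0.99974).

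Deposited intensities of all 36 arrays were normalized with neqc of limma 3.58.1 (R 4.3.3, offset 16). Probes with detection p below 0.01 on at least 3 of 36 arrays were kept (19738). Of all probes 30113 had 1 gene symbol in the platform annotation, 8 several and 17202 none. The probe with the highest mean stood for each of 3008 genes with several kept probes. One limma fit (12 groups, 24 residual degrees of freedom, eBayes with trend) gave two-sided p-values with Benjamini-Hochberg adjustment over 11437 genes. The number of arrays limits the precision. Same-numbered siNeg and Untreated arrays deviated together (correlations 0.204, 0.272 and 0.147), so the labels' replicate numbers were taken as pairs in an alternative with the number as a block. On simulated data with 200 changed genes the fit recovered 55 of 100 changes of 0.5 log2 and 97 of 100 changes of 1, with 6 false calls. Changes of 0.5 were thus often missed in that setting. The simulated noise was independent between arrays, unlike that of the same-numbered arrays. The 200 changed genes were also fewer than the 849 called in the data. Since the adjustment depends on that number, recovery in the data may differ.

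Named were the 14 largest rises and falls among called genes whose groups did not overlap (placeholder names passed over), up to 4 called members of each list by size, further members as counts or examples, and SLC2A3, EWSR1, FLI1, CD99, NKX2-2, NR0B1, SUPT6H, SF3B1 and HNRNPH1. The members, lists and rule were chosen with earlier results of these data known. Alternatives changed background correction, normalization, filter, arrays, variance model, probe choice, replicate block and single arrays.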

Additional observations from a re-analysis of the deposited data

How the results depend on the processing

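Calls numbered 849 (305 higher in siNeg, 544 lower). They numbered 522 (89 and 433) under median scaling, with a median over all genes of -0.0532. With the 6 arrays normalized and fitted alone they were 418 (130 and 288), of which 406 were among the 849, and fewer residual degrees of freedom are part of that fit. With all 6 siNeg arrays they were 1745 (879 and 866), with 568 of the 849 called the same way and 13 of opposite sign. Handling cannot be told apart from the set of siNeg arrays there. Leaving out 1 array gave 506 to 719 calls, 172 to 273 higher and 332 to 490 lower. The lowest totals came without siNeg replicate 1 (506) and siNeg replicate 2 (515), and higher calls moved by over 1.5 times without these (172 and 183) and without Untreated replicate 2 (180). The remaining alternatives gave 666 to 1134 calls. With each of 15211 kept probes tested 946 were called (373 and 573), and under that adjustment 57 of the 849 genes lost the call of their own probe, PSAT1 and RPLP2 among them (adjusted p 0.0558 each). With the replicate block 889 genes were called, 844 of the 849 among them, and with the block on the 6 arrays alone 977. With the block in the fit of all arrays no named gene lost its call, and on the 6 arrays alone ARRDC4 and RPLP2 did. Of 86 named genes that were called, 41 kept the call under all 19 alternatives, and RPLP2 reversed, without a call, under median scaling (-0.047). The cause was not tested. ARPP21, PIPOX and SLC2A14 were not above background in Untreated, so that only bounds are known for them.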

Other observations

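The small RNA host genes and small RNAs below were chosen after their values were seen. Of 13 SNHG genes, which host small nucleolar RNAs in their introns, 4 were higher and 0 lower (median 0.213), where 2.67% of all genes were higher. SNHG7 was 10.88 ± 0.21 in siNeg cells, against 10.16 ± 0.04 in Untreated cells (SD, n = 3 each; 0.72, SE 0.09, limma adjusted p = 1.71e-07). Of 68 SNORA probes 3 were lower and 0 higher (median -0.0846), and of 65 SNORD probes 3 were lower and 0 higher (median -0.0426), shares close to the 4.76% of all genes that were lower. Of 16 SCARNA probes SCARNA18 alone was called. It was 5.56, 5.75 and 5.96 in siNeg replicates 1 to 3 and 5.42 to 6.03 in replicates 4 to 6, against 6.34, 6.97 and 6.53 in Untreated cells. With siSUPT6H it was 7.19 to 8.83 and with siSF3B1 8.27 to 8.63, so that Untreated lay between siNeg and these groups.

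FLI1 differed more between the siNeg sets than between siNeg and Untreated. It was 6.21, 6.68 and 6.50 in siNeg replicates 1 to 3 and 5.16 to 5.34 in replicates 4 to 6, against 6.42, 6.92 and 6.70 in Untreated cells. HSPA1A showed the same layout, with 7.20 to 7.38 in replicates 1 to 3 and 5.36 to 5.78 in replicates 4 to 6, against 7.50 to 8.29 in Untreated cells. Handling and set cannot be told apart, and this difference between the siNeg sets was not tested.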
